A study of Mus musculus with 6 samples.

Results

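Bone morphogenetic protein (BMP) pathway genes other than Bmp4 and the ID genes were examined in Med23 knockout and wild-type embryonic stem (ES) cells from 129SV mice. Med23 is a subunit of Mediator, the complex that connects transcription factors with RNA polymerase II. The set held 37 of 18193 measured genes: 10 ligand genes, 7 receptor genes, 7 SMAD and SMAD ubiquitin ligase genes, 8 antagonist and modulator genes and 5 target genes. A gene entered with a probe set that the platform annotation gave to its symbol alone, and where it had several, the brightest by its average of all 6 arrays stood for it. All 37 genes were measured, by 81 probe sets in all, and no filter on low values was applied. The Med23 knockout and wild-type groups had 3 arrays each, described by the labels as biological replicates. Both groups received fresh complete medium 24 hours before harvest. The sources used here do not say how the knockout was made, whether a group was 1 clone or how far the replicates were grown apart, and p-values measure the spread between these samples. The study's title names BMP signalling and neural differentiation, and the comparison asks how BMP pathway genes differ in steady culture without Med23.

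BMPs are secreted growth factors of the TGF-beta superfamily. A ligand dimer brings type I receptors (Bmpr1a, Bmpr1b, Acvr1, Acvrl1) together with type II receptors (Bmpr2, Acvr2a, Acvr2b), and the type I kinase then phosphorylates SMAD1, SMAD5 and SMAD9, which enter the nucleus with SMAD4 and act on target genes. Secreted proteins such as noggin, chordin and gremlin hold ligands away from the receptors, while SMAD6, the SMURF ubiquitin ligases and the pseudoreceptor BAMBI limit the signal inside or at the surface of the cell. In mouse ES cells, BMP signalling is known for sustaining self-renewal together with LIF and for restraining neural differentiation.

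Values are the deposited log2 expression values, and a difference of 1 on this scale is a 2-fold difference. The probe set of Med23 averaged 7.37 ± 0.04 in knockout and 8.88 ± 0.05 in wild-type cells (SD, n = 3 each), and the log2 fold change was -1.52; whether that probe set lies in the deleted part is not given. Of 9 ES cell markers, 1 rose and 1 fell, and Pou5f1 was 12.92 in knockout and 12.96 in wild-type cells on average. Of 12 extraembryonic endoderm markers, 10 fell and none rose, and their summed linear signal was 522 to 573 in knockout and 2570 to 3562 in wild-type arrays. The markers that did not pass, Afp and Ttr, were dim in knockout and wild-type cells alike, with means under 4.62. Of 9 trophoblast markers, the keratin genes Krt7, Krt8 and Krt18 fell, and they carried the difference in the summed signal (1205 to 1285 in knockout and 2979 to 3326 in wild-type arrays). The lineage factor genes Cdx2, Eomes, Elf5, Tfap2c, Hand1 and Gata3 did not pass, with log2 fold changes between -0.27 and 0.41. The Y-linked gene Eif2s3y averaged 9.87 in knockout and 3.04 in wild-type cells, so the lines differ in more than Med23 and an effect of Med23 cannot be told apart from such a difference. Wild-type replicate 1 stood apart: 752 probe sets lay at least 2-fold below the mean of the other wild-type arrays on it, and 1 lay as far above. Results that rest on this array are given with and without it. With 3 arrays a group, precision is limited.

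Most of the BMP pathway genes did not differ past the test. With limma and a Benjamini-Hochberg adjusted p under 0.05 over all probe sets, 3 of the 37 genes rose in the knockout (Acvr1, Smad1 and Smad6), 2 fell (Bmper and Bmpr1a) and 32 did not pass. Among all 18193 genes 18.9% passed, 8.53% higher and 10.4% lower, and the share here was 13.5%. Whether these shares differ was not tested. Bmp4 and Id1 to Id4, which all fell, were set aside from the 37 with earlier results known, and this lowers the share. Of the 20 pathway genes with both group means over 4.62, the median of all probe sets, 4 passed, or 20%, against 26.1% of all such genes. The median log2 fold change was 0.01 over the 37 genes and 0.02 over all genes. Without wild-type replicate 1, 3 rose and 4 fell, where 20.5% of all genes passed, 10.1% higher and 10.4% lower. Without any other single array, 1 gene rose, Acvr1, and without wild-type replicate 3 the genes that fell numbered 4. Rises were fewer among all 18193 genes too, at 800 to 1160 without 1 of these arrays, against 1551 with all. Without wild-type replicate 3, 1717 of all genes fell, against 1890 with all arrays. Of the 81 probe sets of these genes, 7 rose and 5 fell, or 14.8%, against 14.1% of all probe sets (6.69% higher and 7.43% lower).

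**Figure D1:**
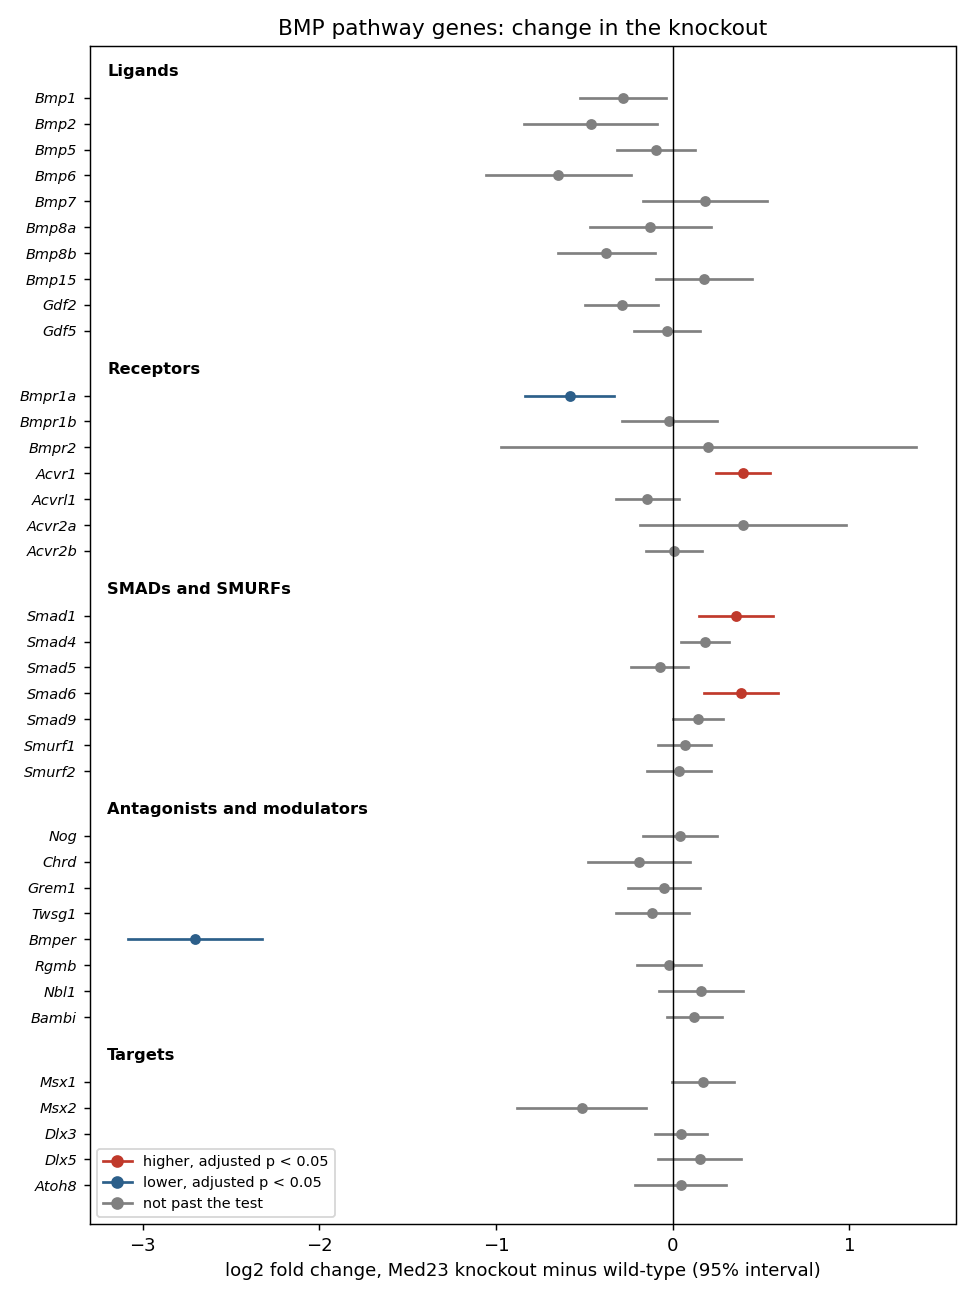
Log2 fold change of the 37 BMP pathway genes (x axis, Med23 knockout minus wild-type, dots) with 95% intervals for each gene alone (lines), by role from ligands at the top to targets at the bottom. Bmper, at -2.70, lies far from the rest, which lie between -0.65 and 0.40, and Bmpr2 has the widest interval.

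The values of the 3 knockout and 3 wild-type arrays did not overlap in 14 of the 37 genes, or 37.8%, against 40.9% of all genes. In 8 of the 14 every knockout array lay above every wild-type array, and in 6 every knockout array lay below, against 21.4% and 19.5% of all genes. The 8 were Acvr1, Smad1, Smad4, Smad6, Smad9, Nbl1, Bambi and Msx1, of which Smad4, Smad9, Nbl1, Bambi and Msx1 did not pass the test. The 6 were Bmper, Bmpr1a, Bmp6, Bmp8b, Gdf2 and Msx2, of which the first pair passed. In 11 genes both group means were under 4.62, and none of these passed the test. Calls were rare among dim genes in general. Both means were under 4.62 in 6370 of all 18193 genes. Of the 3441 genes past the test, 2967 had both means over it.

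**Figure D2:**
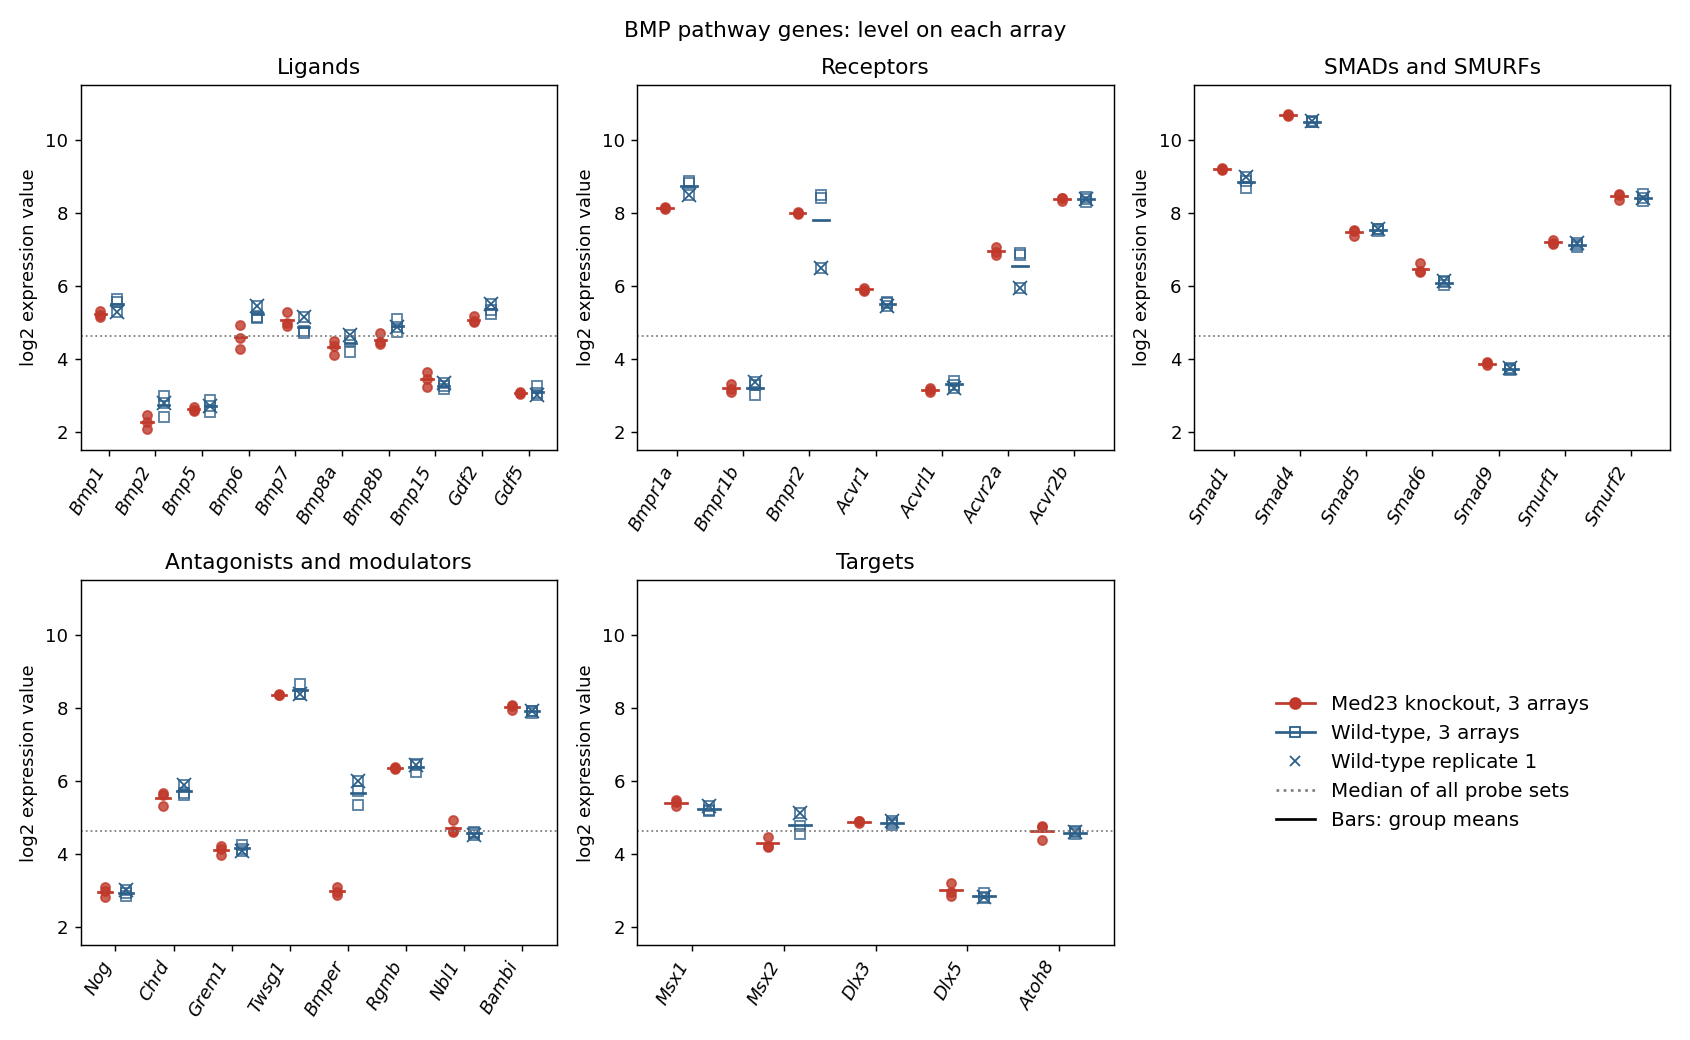
Log2 expression value on each array (y axis) of the 37 genes by role, with Med23 knockout arrays (filled circles) left of wild-type arrays (open squares), group means as bars and wild-type replicate 1 crossed. The dotted line is the median of all probe sets, 4.62. Bmper separates the groups most, and wild-type replicate 1 lies apart from the other wild-type arrays in Bmpr2 and Acvr2a. Heights of different genes come from different probe sets and are not comparable with each other.

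Against 18.9% of all genes, none of the 10 ligand genes passed the test in either direction. Their log2 fold changes ran from -0.65 to 0.18 with a median of -0.21, and 8 of the 10 were negative, against 45.0% of all genes. In 5 of the 10 both group means were under 4.62, where a sign carries little information. Bmp6, which encodes a ligand of the same branch as BMP5 and BMP7, was 4.93, 4.56 and 4.26 in the knockout arrays and 5.44, 5.14 and 5.12 in the wild-type arrays. Every knockout array lay below every wild-type array, and the log2 fold change of -0.65 (SE 0.17) had a limma adjusted p of 0.0521, just outside the threshold. It passed without knockout replicate 1 (adjusted p = 0.0200). The knockout mean of 4.59 was under 4.62, the median of all probe sets, where low signals make the size of a difference uncertain.

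Bmp8b is known from the induction of germ cells in the mouse embryo. Bmp8b and its close paralog Bmp8a lie near each other on chromosome 4, and probes for near-identical copies may read either transcript. Bmp8b was 4.45, 4.70 and 4.42 in knockout and 4.88, 4.73 and 5.09 in wild-type arrays, without overlap (log2 fold change -0.38, limma adjusted p = 0.0818). Bmp8a was 4.49, 4.10 and 4.36 in knockout and 4.65, 4.18 and 4.50 in wild-type arrays, and its groups overlapped (adjusted p = 0.646). Gdf2 encodes BMP9, a circulating ligand of the receptor ALK1. It was 5.16, 5.01 and 5.03 in knockout and 5.50, 5.34 and 5.23 in wild-type arrays, again without overlap but not past the test (log2 fold change -0.29, adjusted p = 0.0758).

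Bmp1, despite its name, encodes a metalloprotease that cleaves procollagen and chordin. It was 5.31, 5.19 and 5.15 in knockout and 5.29, 5.64 and 5.56 in wild-type arrays, where wild-type replicate 1 lay inside the knockout range. The log2 fold change was -0.28 (limma adjusted p = 0.130) with all arrays and -0.39 (adjusted p = 0.0219) without wild-type replicate 1. The other Bmp1 probe sets, which were dimmer, had log2 fold changes of -0.0033 and -0.051 with all arrays (adjusted p = 0.987 and 0.812). The probe sets of Bmp7, a ligand of many epithelia, disagreed. The brightest was 4.98, 5.30 and 4.91 in knockout and 5.16, 4.77 and 4.71 in wild-type arrays, with overlap (log2 fold change 0.18, adjusted p = 0.507). A second Bmp7 probe set was 4.98, 5.19 and 4.95 in knockout and 4.67, 4.52 and 4.60 in wild-type arrays and passed (0.44, adjusted p = 0.0156), while the third had a log2 fold change of -0.18 (adjusted p = 0.481).

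The other ligand genes were dim in both groups: Bmp2, Bmp5, Bmp8a, the oocyte factor gene Bmp15 and Gdf5, known for joint formation, had values of 2.08 to 4.49 in knockout and 2.42 to 4.65 in wild-type arrays. Their log2 fold changes lay between -0.46 for Bmp2 and 0.18 for Bmp15, with limma adjusted p from 0.110 to 0.838. Bmp2, a ligand closely related to BMP4, had overlapping groups and passed only without wild-type replicate 3 (-0.62, adjusted p = 0.0335).

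Among the 7 receptor genes, Bmpr1a fell and Acvr1 rose, where 10.4% of all genes fell and 8.53% rose. Bmpr1a and Acvr1 both encode type I receptors. Their promoters, 250 bases before to 50 after the transcription start in RefSeq's GRCm38.p6 annotation, are shown because these genes passed the test. Capitals mark GGCGCC, a GC-rich sequence found in BMP-responsive promoters, and GTCT, the SMAD core motif, or their reverse complements. The Bmpr1a window is chr14:34502497-34502796 and the Acvr1 window chr2:58566779-58567078, both on the minus strand and printed 5′ to 3′.
Bmpr1a: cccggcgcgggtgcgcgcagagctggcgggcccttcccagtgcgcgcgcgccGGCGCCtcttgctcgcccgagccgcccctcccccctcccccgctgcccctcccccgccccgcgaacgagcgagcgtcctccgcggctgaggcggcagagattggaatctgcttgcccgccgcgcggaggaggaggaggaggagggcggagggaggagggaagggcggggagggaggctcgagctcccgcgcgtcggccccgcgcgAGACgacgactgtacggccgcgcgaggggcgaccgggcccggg
Acvr1: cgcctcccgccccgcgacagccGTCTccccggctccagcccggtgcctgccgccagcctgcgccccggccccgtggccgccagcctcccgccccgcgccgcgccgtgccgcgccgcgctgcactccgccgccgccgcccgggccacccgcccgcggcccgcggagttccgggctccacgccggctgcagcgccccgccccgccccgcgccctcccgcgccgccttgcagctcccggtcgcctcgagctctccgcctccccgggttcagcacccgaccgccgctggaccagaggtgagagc

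Bmpr1a, the main type I BMP receptor gene known from mouse gastrulation, was 8.12, 8.13 and 8.16 in knockout arrays and 8.48, 8.87 and 8.81 in wild-type arrays. The knockout arrays lay within 0.05 of each other and below all wild-type arrays. The means were 8.14 ± 0.02 in knockout and 8.72 ± 0.21 in wild-type cells (SD, n = 3 each). The log2 fold change was -0.58 (SE 0.11; adjusted p by limma, 0.0117), or 1.5-fold lower. Of its 6 probe sets, 4 passed, all lower, with log2 fold changes of -0.58, -0.73, -0.79 and -1.1, and the dimmest pair did not (-0.34 and -0.06). Bmpr1a lies on chromosome 14, where genes nearby fell too. Of the 20 measured genes on each side, 9 had a mean above 7, all 9 fell, and their median log2 fold change was -0.99, so that Bmpr1a minus this median was 0.40. A change of Bmpr1a itself and one shared with its chromosomal neighbours cannot be told apart.

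Acvr1, which encodes the type I receptor ALK2, was 5.90, 5.95 and 5.87 in knockout and 5.43, 5.55 and 5.54 in wild-type arrays. All knockout arrays lay above all wild-type arrays, and the spread within each group was small. It was 0.40 higher on the log2 scale (SE 0.06; adjusted p by limma, 0.00738), or 1.32-fold higher. The other Acvr1 probe sets had log2 fold changes of 0.15 and 0.08 and did not pass (adjusted p = 0.366 and 0.456), so the rise rests on the brightest probe set. The 11 brighter genes nearby on chromosome 2 had a median of 0.16, and 4 of them rose.

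The type II receptor gene Bmpr2 turned on 1 array. Its brightest probe set was 8.03, 7.99 and 7.97 in knockout arrays and 6.48, 8.41 and 8.49 in wild-type replicates 1, 2 and 3. Wild-type replicate 1 lay 1.97 below the mean of its fellows, the largest such gap among the 37 genes, and the log2 fold change of 0.20 had a wide interval (-0.97 to 1.37; limma adjusted p = 0.853). Without that array, it was -0.46 (SE 0.06; adjusted p = 0.00703), lower in the knockout. The other Bmpr2 probe sets, with all values under 4.62, had log2 fold changes of -0.12 and 0.15 and did not pass.

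Acvr2a, a type II receptor gene shared by activin and BMP ligands, showed the same array apart. Its brightest probe set was 7.07, 6.85 and 6.92 in knockout and 5.93, 6.89 and 6.85 in wild-type arrays, with wild-type replicate 1 at 0.94 below its fellows. The log2 fold change of 0.40 (limma adjusted p = 0.376) became 0.08 (adjusted p = 0.576) without that array. The second Acvr2a probe set was 6.07, 6.16 and 6.09 in knockout and 6.21, 6.07 and 6.09 in wild-type arrays, with no gap at wild-type replicate 1. In the other 35 genes that array lay between 0.36 below and 0.48 above the mean of its fellows. Among all genes, 1.5% lay at least 2-fold below on this array and 0.0055% as far above; of the 37 genes, Bmpr2 did.

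**Figure D3:**
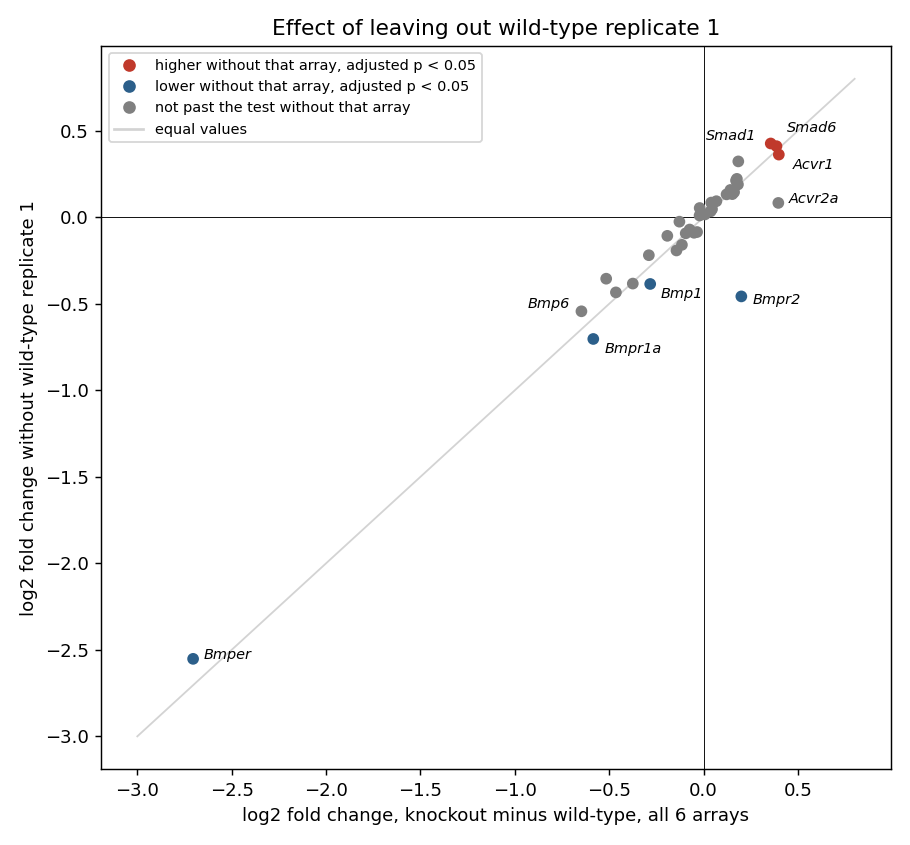
Log2 fold change of the 37 genes (knockout minus wild-type) with all 6 arrays (x axis) and without wild-type replicate 1 (y axis); the grey line marks equal values. Bmpr2 is at 0.20 on the x axis and -0.46 on the y axis, Acvr2a at 0.40 and 0.08, while the 5 genes that passed with all arrays stay close to the line.

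Acvr2b, a related type II receptor gene, did not pass: it was 8.40, 8.31 and 8.41 in knockout and 8.38, 8.29 and 8.43 in wild-type arrays. The 95% interval of its log2 fold change, -0.15 to 0.17, was narrow (limma adjusted p = 0.966). Bmpr1b and Acvrl1, the gene of ALK1, a receptor of endothelial cells, were dim in both groups, with means of 3.19 and 3.16 in knockout and 3.22 and 3.30 in wild-type cells. Neither passed (adjusted p = 0.938 and 0.284).

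**Figure D4:**
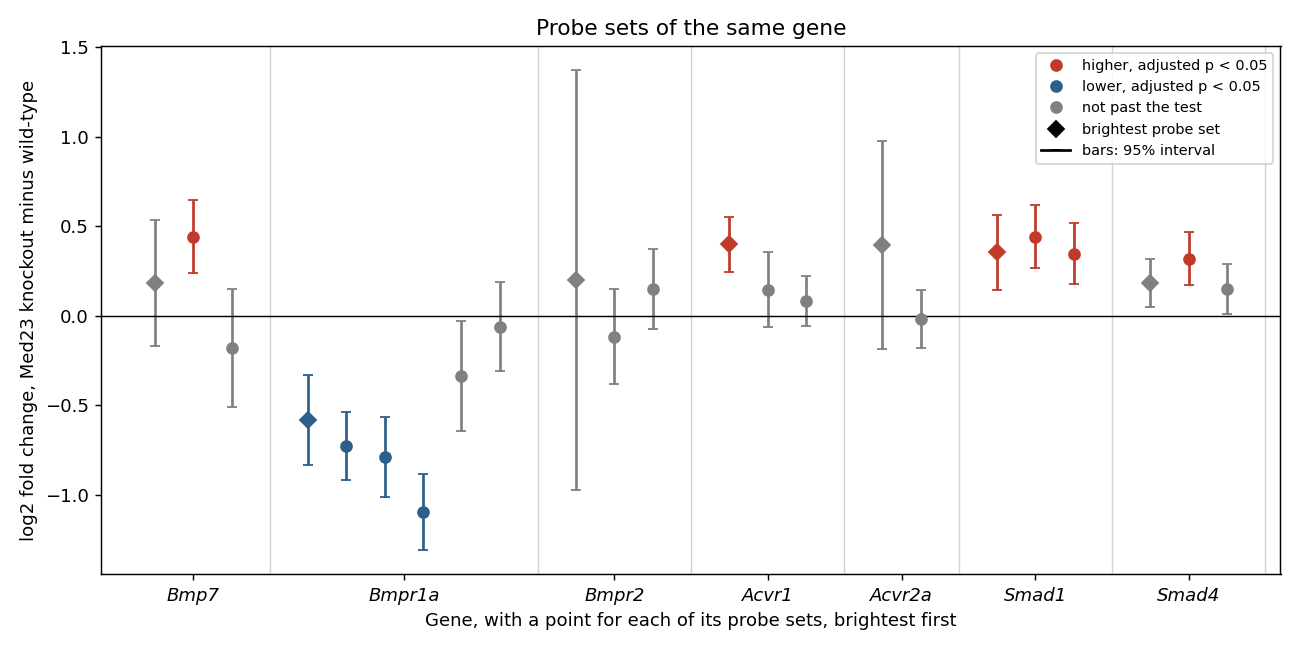
Log2 fold change (y axis, knockout minus wild-type) of each probe set of 7 genes (x axis), brightest first and drawn as a diamond, with 95% intervals. Of the Bmpr1a probe sets 4 passed, all lower, and all 3 of Smad1 passed, all higher; in Bmp7 and Smad4 a probe set other than the brightest passed.

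Of the 7 SMAD and SMURF genes, Smad1 and Smad6 rose, none fell, and 6 had a positive log2 fold change, where 8.53% of all genes rose and 55.0% were positive. Neither call held when any array other than wild-type replicate 1 was omitted. The 7 log2 fold changes lay between -0.07 and 0.39, with a median of 0.14. The promoters of Smad1 (chr8:79399379-79399678) and Smad6 (chr9:64022010-64022309), both on the minus strand of GRCm38.p6 and from RefSeq, are shown as those of the SMAD genes past the test, with the same motifs in capitals.
Smad1: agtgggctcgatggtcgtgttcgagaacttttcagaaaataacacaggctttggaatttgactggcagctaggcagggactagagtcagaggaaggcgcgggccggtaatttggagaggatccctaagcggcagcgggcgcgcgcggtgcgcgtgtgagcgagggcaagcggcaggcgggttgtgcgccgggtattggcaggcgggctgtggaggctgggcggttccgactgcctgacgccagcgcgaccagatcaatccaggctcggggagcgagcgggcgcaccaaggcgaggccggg
Smad6: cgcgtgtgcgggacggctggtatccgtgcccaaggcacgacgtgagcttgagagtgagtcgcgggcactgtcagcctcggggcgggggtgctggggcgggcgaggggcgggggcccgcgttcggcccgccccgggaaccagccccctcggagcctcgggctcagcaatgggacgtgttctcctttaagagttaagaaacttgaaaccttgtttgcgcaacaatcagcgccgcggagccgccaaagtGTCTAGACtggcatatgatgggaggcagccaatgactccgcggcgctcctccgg

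Smad1, which encodes a SMAD phosphorylated by BMP receptors, was 9.22, 9.20 and 9.17 in knockout and 8.98, 8.87 and 8.67 in wild-type arrays. The groups did not overlap, and the knockout arrays varied less than the wild-type arrays. The means were 9.19 ± 0.03 in knockout and 8.84 ± 0.16 in wild-type cells (SD, n = 3 each), 0.36 higher on the log2 scale (SE 0.09; adjusted p by limma, 0.0399), or 1.28-fold higher. All 3 probe sets of Smad1 passed, with log2 fold changes of 0.36, 0.44 and 0.35. The call of the brightest ended without knockout replicate 1, 2 or 3 (adjusted p = 0.124, 0.119 and 0.104) and without wild-type replicate 2 or 3 (0.0954 and 0.0655), while the log2 fold change stayed between 0.27 and 0.43.

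Smad6 encodes an inhibitory SMAD that is itself a known BMP target and works as feedback on the pathway. It was 6.40, 6.64 and 6.37 in knockout and 6.13, 6.11 and 6.01 in wild-type arrays, with no overlap. The means were 6.47 ± 0.15 in knockout and 6.08 ± 0.06 in wild-type cells (SD, n = 3 each), 0.39 higher on the log2 scale (SE 0.09; adjusted p by limma, 0.0299), or 1.31-fold higher. Smad6 has 1 probe set, so no second reading of its rise exists here. Its call ended without knockout replicate 1, 2 or 3 (adjusted p = 0.0654, 0.0775 and 0.0511) and without wild-type replicate 2 or 3 (0.0793 and 0.0857), while the log2 fold change stayed between 0.30 and 0.44.

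Smad4, the partner of all receptor-regulated SMADs, was 10.68, 10.71 and 10.66 in knockout and 10.51, 10.50 and 10.48 in wild-type arrays. The groups were tight and did not overlap, but the difference was small (log2 fold change 0.18, SE 0.06, limma adjusted p = 0.0860). A second Smad4 probe set passed (0.32, adjusted p = 0.0167), and the third did not (0.15, adjusted p = 0.154). Smad5, the closest relative of Smad1 in function, was 7.36, 7.54 and 7.49 in knockout and 7.54, 7.51 and 7.56 in wild-type arrays, and its groups overlapped (log2 fold change -0.07, adjusted p = 0.569). Smad9, dim in both groups, was 3.91, 3.82 and 3.89 in knockout and 3.76, 3.72 and 3.71 in wild-type arrays and did not pass (adjusted p = 0.188).

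The SMURF genes encode ubiquitin ligases that mark SMADs and receptors for breakdown. Smurf1 was 7.15, 7.17 and 7.25 in knockout and 7.17, 7.12 and 7.08 in wild-type arrays, and Smurf2 was 8.36, 8.51 and 8.47 in knockout and 8.41, 8.32 and 8.51 in wild-type arrays. Both overlapped between the groups and did not pass (limma adjusted p = 0.573 and 0.820), with 95% intervals of the log2 fold change from -0.08 to 0.22 and from -0.14 to 0.22.

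Of the 8 antagonists and modulators, Bmper alone passed, or 12.5%, against 18.9% of all genes. Its change was the largest of all 37 genes. BMPER, the mammalian relative of fly Crossveinless-2, is a secreted BMP-binding protein that can dampen or favour signalling. Its promoter is shown because of that change: chr9:23222826-23223125 on the plus strand of GRCm38.p6, from RefSeq, with the same motifs in capitals.
Bmper: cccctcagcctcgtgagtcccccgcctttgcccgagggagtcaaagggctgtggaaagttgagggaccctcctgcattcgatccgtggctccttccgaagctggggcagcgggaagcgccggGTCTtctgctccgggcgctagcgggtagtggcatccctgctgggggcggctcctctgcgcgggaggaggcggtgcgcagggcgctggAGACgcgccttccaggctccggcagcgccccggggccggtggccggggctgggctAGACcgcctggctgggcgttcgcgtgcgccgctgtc

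Bmper was 3.10, 2.97 and 2.87 in knockout arrays and 5.99, 5.72 and 5.34 in wild-type arrays. The gap between the groups was several times the spread within either. The means were 2.98 ± 0.11 in knockout and 5.69 ± 0.33 in wild-type cells (SD, n = 3 each), and the log2 difference was -2.70 (SE 0.16; adjusted p by limma, 9.82e-05). It stayed between -2.88 and -2.55 when any 1 array was left out. Its knockout mean was under 4.62, where low signals make the size of a fall uncertain, and Bmper has 1 probe set. The 15 brighter genes nearby on chromosome 9 had a median of 0.03, and 1 of them fell. Markers of extraembryonic endoderm fell in the same comparison (10 of 12, with Gata6 at 4.92 in knockout and 7.52 in wild-type cells on average), and their part in the fall of Bmper was not tested. Fewer cells of a type and less RNA per cell cannot be told apart in bulk samples.

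The classical secreted antagonists did not pass. Chrd, the chordin gene, was 5.68, 5.63 and 5.31 in knockout and 5.90, 5.66 and 5.63 in wild-type arrays (log2 fold change -0.19, limma adjusted p = 0.387). The noggin gene Nog and the gremlin gene Grem1 were dim, at 2.83 to 4.21 in knockout and 2.86 to 4.26 in wild-type arrays, and their log2 fold changes were 0.04 and -0.05. Nbl1, a DAN family antagonist gene, was 4.95, 4.63 and 4.60 in knockout and 4.53, 4.60 and 4.57 in wild-type arrays, close to the median of all probe sets, with knockout replicate 1 highest (adjusted p = 0.374).

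Genes of modulators at the cell surface and around the receptor likewise did not pass. Twsg1, whose product twisted gastrulation binds both BMPs and chordin, was 8.35, 8.35 and 8.40 in knockout and 8.39, 8.39 and 8.66 in wild-type arrays (limma adjusted p = 0.480). Rgmb encodes a membrane-anchored BMP co-receptor rather than an antagonist, and it was 6.34, 6.35 and 6.39 in knockout and 6.44, 6.46 and 6.24 in wild-type arrays (adjusted p = 0.904). The other Rgmb probe sets, dim in both groups, had log2 fold changes of -0.46, -0.44, -0.35, -0.16 and 0.10. None of them passed (lowest limma adjusted p = 0.0759). Bambi, the gene of a pseudoreceptor without a kinase and a known BMP target, was 7.95, 8.09 and 8.04 in knockout and 7.93, 7.87 and 7.92 in wild-type arrays. Its groups did not overlap, yet the difference of 0.12 did not pass (adjusted p = 0.301).

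None of the 5 target genes passed, where 18.9% of all genes did. The choice of these 5 left out Id1 to Id4, BMP targets set aside with earlier results known. Smad6 and Bambi, also known BMP targets, were counted under other roles. Of 15 further target genes outside the set, 7 fell, none rose and 8 did not pass. The 7 were Id1 to Id4, Hey1 (log2 fold change -0.55), Dusp9 (-0.90) and Gata2 (-0.42). The result for the 5 therefore does not describe BMP targets in general. Msx2, a homeobox gene induced by BMPs in many embryonic tissues, was 4.23, 4.19 and 4.46 in knockout and 5.13, 4.76 and 4.54 in wild-type arrays. The groups did not overlap, but the wild-type arrays were spread widely (log2 fold change -0.52, SE 0.15; limma adjusted p = 0.0727), and the gene passed only without wild-type replicate 3 (adjusted p = 0.0376). The knockout mean was under 4.62. A second Msx2 probe set had a log2 fold change of 0.06 (adjusted p = 0.760). Its relative Msx1 was 5.32, 5.42 and 5.48 in knockout and 5.32, 5.17 and 5.22 in wild-type arrays (0.17, adjusted p = 0.194). A second Msx1 probe set had a log2 fold change of -0.15 (adjusted p = 0.423). In both genes the probe sets differed in sign, and none passed with all arrays.

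The distal-less homeobox gene Dlx3 was 4.86, 4.92 and 4.89 in knockout and 4.91, 4.84 and 4.79 in wild-type arrays, overlapping between the groups (limma adjusted p = 0.716). Dlx5, known for bone and craniofacial development, was dim, at 2.86 to 3.20 in knockout and 2.81 to 2.94 in wild-type arrays. Atoh8, a basic helix-loop-helix gene responsive to BMPs, was 4.78, 4.39 and 4.73 in knockout and 4.59, 4.63 and 4.55 in wild-type arrays, near the median of all probe sets (adjusted p = 0.851).

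Position on the chromosomes was set beside each gene because the genes near Bmpr1a fell together. For each of the 37 genes, the measured genes with a mean above 7 were taken among the 20 on each side in RefSeq gene order, which gave 9 to 25 neighbours. In 34 genes the neighbours' median log2 fold change lay between -0.07 and 0.17, and the genes that rose and Bmper were among these. Over 7620 genes with a mean above 7, the 5th and 95th percentiles of such medians were -0.15 and 0.17. The median beside Acvr1, 0.16, was near the upper of these, and whether its rise was shared with its neighbours was not tested. In the other 3 of the 37 genes the neighbours' median was -0.99 (Bmpr1a), -0.76 (Gdf2) and -0.91 (Bmp15). Gdf2 and Bmpr1a lie close together on chromosome 14, and all 13 brighter neighbours of Gdf2 fell. Of these, 7 are also among the 9 of Bmpr1a, so the pair describe 1 region with 15 distinct neighbours. Bmp15 lies on the X chromosome, where 9 of 10 neighbours fell, and it did not follow them: it was 3.65, 3.44 and 3.22 in knockout and 3.35, 3.17 and 3.26 in wild-type arrays, dim in both groups.

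**Figure D5:**
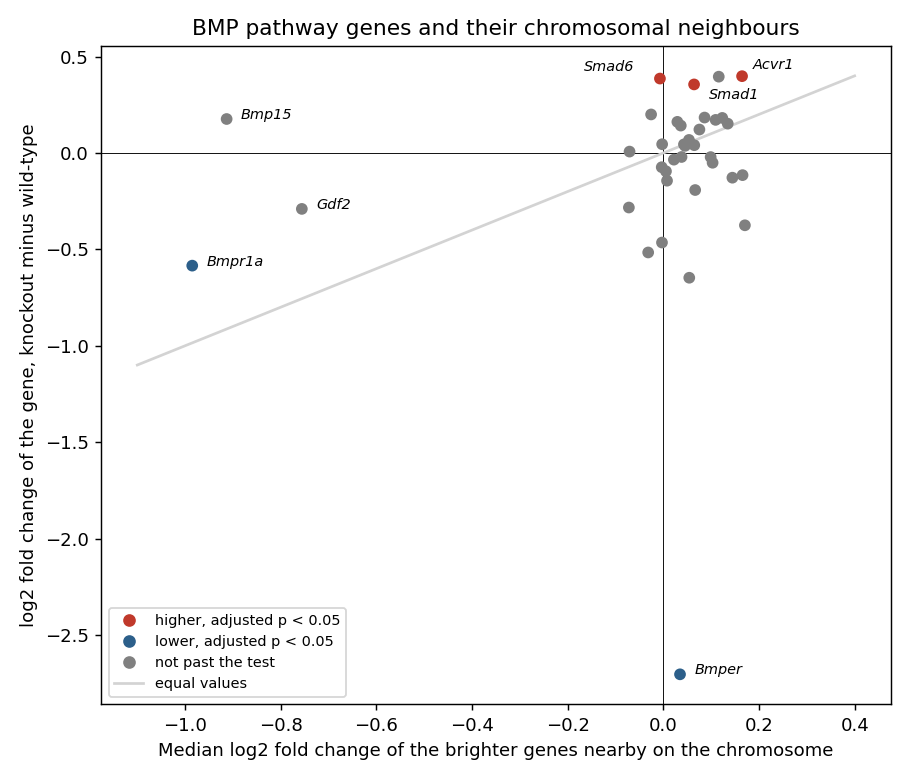
Log2 fold change of each of the 37 genes (y axis, knockout minus wild-type) against the median log2 fold change of the brighter genes nearby on its chromosome (x axis); the grey line marks equal values. Bmpr1a, Gdf2 and Bmp15 have neighbours that were lower together, and Bmper fell without such neighbours.

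The promoter windows of the 37 genes were searched for GGCGCC and GTCT on both strands. The RefSeq table held 33 windows for 27 of the genes. GGCGCC was found in 10 of the 33 windows, or 30.3%, against 11.9% of all 32851 windows, and GTCT in 87.9%, against 88.0%. Several genes have more than 1 window, and a pair of Smad5 windows overlap; counted by gene, GGCGCC was in 9 of 27, or 33.3%, against 13.4% of all genes. GC content was higher in the windows of the pathway genes, with a median of 66.7% (41.7% for Bmp15 to 83.7% for Acvr1), than over all windows, with a median of 52.7%, and its part in the share with GGCGCC was not tested. Of the 5 genes past the test, Bmpr1a had GGCGCC once and Bmper, Smad6, Smad1 and Acvr1 had none, while GTCT was found 3 times in Bmper, 2 in Smad6, 1 each in Bmpr1a and Acvr1 and 0 in Smad1. The pair of GTCT matches in Smad6, on opposite strands, adjoin. GGCGCC followed by GTCT after 5 bases was in 0 of the 33 windows and in 0.0731% of all windows. These matches describe the letters only.

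Other pathway genes, from a list of ligands, co-receptors, SMAD regulators, antagonists and targets outside the 37, included Bmp4 and the ID genes. Of 52 measured, 13 fell and 3 rose, or 30.8%, beside the background of 18.9%, and the median log2 fold change was -0.10. In 39 of the 52 both group means were over the median of all probe sets. Among all genes with both means over it, 26.1% passed. The part of signal level in the gap between 30.8% and 18.9% was not tested. Bmp4 and Id1 to Id4, which the choice of the 37 set aside with earlier results known, make up 5 of the 13 falls. Among the other 47 genes 8 fell and 3 rose, or 23.4%, with a median of -0.09. Bmp4 averaged 8.93 ± 0.10 in knockout and 10.56 ± 0.23 in wild-type cells, and Id1, Id2 and Id3, genes of inhibitors of basic helix-loop-helix factors, had log2 fold changes of -1.67, -1.43 and -0.57. Further falls were those of the secreted protease gene Htra1 (-2.11), the SMAD corepressor gene Skil (-1.01), the follistatin gene Fst (-0.98), the phosphatase gene Dusp9 (-0.90), Id4 (-0.82) and the co-receptor gene Tgfbr3 (-0.79). The genes that rose were Neo1 (0.45), which encodes the RGM receptor neogenin, Fstl1 (0.40) and Lemd3 (0.26), whose product binds SMADs at the nuclear envelope.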

How the data were processed

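Total RNA of 3 Med23 knockout and 3 wild-type ES cell samples was hybridised as biotinylated cRNA to Affymetrix arrays, per the labels' protocols. The table the authors deposited holds log2 values; no log base is stated, and it was inferred from their span (1.83 to 14.60). Per the submitters' processing notes, RMA and MAS5 were involved; no role or version is stated. The values were used as deposited. Without detection calls, dim signals and background were not told apart.

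Of 45101 rows, 64 array controls were left out and 45037 probe sets were tested. The platform annotation gave 34945 of them 1 symbol, 932 several and 9160 none; 34741 were matched by Entrez identifier to RefSeq (GRCm38.p6). There were 0 columns of other samples. Differences (knockout minus wild-type) were tested with limma 3.58.1 in R 4.3.3 (lmFit, eBayes, no trend), two-sided, adjusted over all 45037 probe sets, with 4 residual and 3.08 prior degrees of freedom. The fit was tested on simulated data.

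The 37 genes, the other lists and the motifs were chosen with earlier results of these data known. Every member was named; array values are given for those above the median of all probe sets in a group, past the test or, without overlap, changed at least 1.5-fold, and, outside that rule, for Bmp8a, Bmp15 and Smad9. Of the other pathway genes, Bmp4, Id1, Id2, Id3 and the 6 with the largest changes past the test were named. Neo1, Fstl1, Lemd3, Hey1 and Gata2 were added after their values were seen. Bmp3, Gdf1, Gdf6, Gdf7 and Runx2 were not analysed here. Markers fixed for trophoblast, mesoderm, neural cells and fibroblasts fell in 3 of 9, 1 of 5, 3 of 7 and 2 of 9 genes, and 1 neural marker rose. Alternatives were quantile normalization, centring, a filter on dim probe sets, an intensity trend, array weights, a replicate block, the mean of a gene's probe sets and leaving out each array.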

Additional observations from a re-analysis of the deposited data

How the results depend on the processing

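Of the 5 genes past the test, Acvr1 and Bmpr1a passed under all 13 alternatives and Bmper under all but the filter on dim probe sets, which left it untested. Smad1 and Smad6 ended as given in the results, and Smad1 also with the replicate block (adjusted p = 0.0600). When 1 array was left out, 1 to 3 of the pathway genes rose and 2 to 4 fell, against 3 and 2 with all. With the mean of a gene's probe sets 5 fell, since Bmp6, Bmp8b and Gdf2 then passed. Over all genes, 2096 fell with that mean and 1302 to 1896 when 1 array was left out, against 1890. Bmp6 also passed with the filter, the trend and the block, Gdf2 with the filter, Smad4 with the filter, the trend and the mean of probe sets, and Bmp1 with array weights. Over all probe sets, 1497 to 3494 rose when 1 array was left out, against 3013, and 1915 with the block; over genes 800 to 1841 rose, against 1551, and 1000 with the block. Other pathway genes that rose numbered 1 to 5 when 1 array was left out, and 1 with the block, against 3. Replicate numbers are shared between the groups, but same-numbered arrays did not deviate together (correlations of -0.133, -0.0588 and 0.000831 for numbers 1, 2 and 3), so the block rests on numbers alone.

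The sign of some log2 fold changes turned, in each case of a gene not past the test with all arrays. Leaving out 1 array gave ranges that crossed 0: Gdf5 -0.085 to 0.036, Bmpr1b -0.13 to 0.053, Bmpr2 -0.46 to 0.55, Acvr2b -0.032 to 0.038, Smurf2 -0.0081 to 0.085, Nog -0.020 to 0.11, Grem1 -0.10 to 0.016, Rgmb -0.091 to 0.017 and Atoh8 -0.029 to 0.17. Of these, Bmpr2 passed, without wild-type replicate 1. The sign also turned with array weights in Bmpr1b (0.044) and Bmpr2 (-0.10), with the mean of all probe sets in Smurf1 (-0.0058) and Dlx3 (-0.0049), and with quantile normalization in Rgmb (0.00028). The cause of these moves was not tested. Low signal limits what can be seen of the 11 genes under the median in both groups.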
